A study of Saccharomyces cerevisiae with 21 samples.

Results

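The HUG1 protein pairs of this series are the pools in which HUG1 was tested against ADE17, ALO1 and PGM2. They were taken by name from the 62 pools of barcoded yeast strains that were counted in each library. Each pool was counted for the same 361 strain barcodes, which gives 1083 combinations of strain and pool for HUG1 out of 22382 in all. Of these, 268 strains averaged 10 reads or more over the 20 libraries of the 96 h time point in HUG1-ADE17, as did 282 in HUG1-ALO1 and 286 in HUG1-PGM2, and these 836 combinations were tested. They held 99.7% of the reads of the HUG1 pools. The remaining combinations were too sparse to be tested and are not described further.

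HUG1 (YML058W-A) encodes a small protein of budding yeast (Saccharomyces cerevisiae) that is strongly induced by DNA damage and by blocked replication, under the control of the DNA damage checkpoint, and that is tied to the regulation of ribonucleotide reductase. ADE17 (YMR120C) encodes an enzyme of the last steps of purine synthesis and is an isozyme of ADE16. ALO1 (YML086C) encodes D-arabinono-1,4-lactone oxidase, which makes the last step to erythroascorbate, and PGM2 (YMR105C) encodes the major phosphoglucomutase. In the assay, fragments of a dihydrofolate reductase that methotrexate (MTX) does not inhibit are fused to both proteins of a pair. The reporter works when the proteins come together, and growth in MTX then depends on it. The strains carry genetic variation across the genome, so a barcode that gains share in MTX marks a genotype that grew better than the rest of its pool. Shares within a pool sum to a whole, and a fall of a share does not by itself mean that cells died.

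Barcodes were counted in cultures grown for 96 h at 30 °C in synthetic medium, passaged every 24 h, without drug or with 0.2 µM 5-FC (an antifungal pyrimidine analog), 100 µM fluconazole (an azole antifungal), 50 mM metformin or 17.5 µM trifluoperazine. Every medium had cultures containing 10 µg/mL MTX and cultures lacking it, each as replicates A and B, and a single library was taken at time 0. The pool named noPPI_reference, which has no protein pair in its name, served as the reference. All groups share the strain library, and whether A and B came from separate starting cultures is not stated, so the p-values measure the spread between these samples. No strain genotypes were used here, and strains are named by their barcode numbers.

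Total reads per library ranged from 5370053 to 10620612 at 96 h. A HUG1 pool held 8831 to 348568 of them, with a median of 84834, or 0.118% to 4.40% of the library. The lowest total was HUG1-PGM2 in fluconazole without MTX, replicate B, with 8831 reads, followed by HUG1-ALO1 in trifluoperazine with MTX, replicate A, with 9155 reads. Log2 shares of replicates A and B correlated across strains with r from 0.829 to 0.964 in the 24 combinations of HUG1 pool and group outside fluconazole, and from 0.577 to 0.864 in the 6 with fluconazole. Replicates therefore differed most in fluconazole. The tests of strains below share an estimate of spread over all groups, which does not allow for this.

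MTX left fewer strains in substantial numbers in every HUG1 pool. The evenness of a pool was expressed as the effective number of strains, the exponential of the Shannon entropy of the strain shares, which equals the number of strains if all had the same share. In HUG1-ADE17 without drug it was 111 and 100.7 without MTX (105.8 ± 7.25, SD, n = 2) and 31.7 and 36.4 with MTX (34.1 ± 3.38). In HUG1-ALO1 it was 107.6 and 111.4 without MTX and 33.3 and 26.1 with MTX, and in HUG1-PGM2 it was 105.2 and 103.6 without MTX and 41.5 and 40.3 with MTX, here and below in the order of replicates A and B. The libraries with MTX lay below those without MTX in each of the 5 media in all 3 pools, with no overlap. At time 0 the effective numbers were 105.2, 99.9 and 97.1 in the order of the pools above, near those after 96 h without MTX or drug.

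Over the 5 media the effective number was 3.38-fold lower with MTX in HUG1-ADE17, 3.57-fold lower in HUG1-ALO1 and 2.496-fold lower in HUG1-PGM2. Each p was 0.000257 in an exact two-sided permutation test of the MTX labels within media, the smallest that the 7776 arrangements allow, and it was 0.000257 after adjustment over 4 pools. In the reference pool the number fell 2.59-fold. The decrease was smaller in HUG1-PGM2 than in HUG1-ALO1 in 5 of 5 media, by 0.51 on the log2 scale (exact permutation test, p = 0.000257, adjusted over 6 pairs of pools 0.00154). HUG1-ADE17 had a larger decrease than HUG1-PGM2 in 4 of 5 media (difference -0.44, exact permutation p = 0.0152, adjusted 0.0455), but this call was lost in 14 of the 20 fits that left out a library, with differences from -0.53 to -0.34, and also with the replicate block (adjusted 0.0996) and with the inverse Simpson index (0.132). In this mean over the 5 media, no HUG1 pool was called different from the reference in its decrease. Adjusted exact permutation p were 0.253, 0.168 and 0.806 for ADE17, ALO1 and PGM2, and 0.806 for ADE17 against ALO1. Each difference from the reference was positive in 2 media and negative in 3, so opposite differences partly cancel in the mean. Without drug the reference fell more than any HUG1 pool, from 113.6 and 140.3 to 23.5 and 26.3. In fluconazole it fell less than any of them (values below). Single media were not tested.

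**Figure D1:**
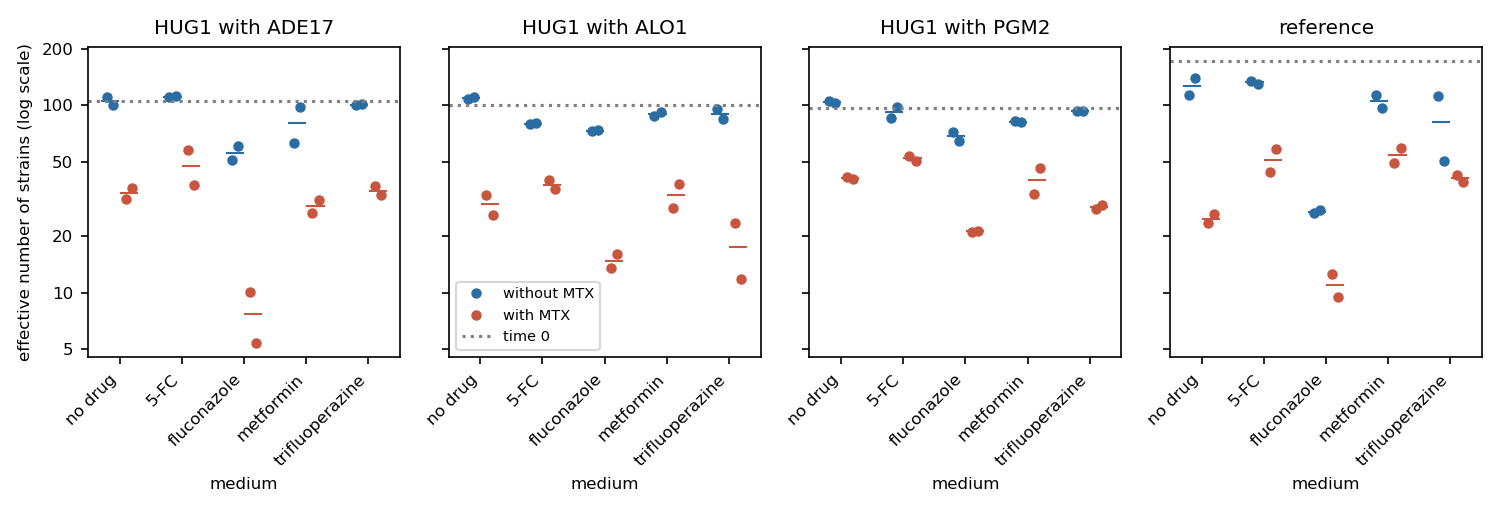
Effective number of strains (log axis) in the 3 HUG1 pools and the reference pool, by medium. Points are the replicates A and B with MTX and without MTX, short lines are their means, and the dotted line is the time 0 library. The points with MTX lie below those without MTX in every medium and pool, and the lowest pair is HUG1-ADE17 in fluconazole with MTX at 10.1 and 5.40.

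Fluconazole with MTX left few effective strains in all 3 HUG1 pools and in the reference. HUG1-ADE17 had 10.1 and 5.40 effective strains there, HUG1-ALO1 13.6 and 16.1, and HUG1-PGM2 21.2 and 21.4. The reference had 12.7 and 9.50, below HUG1-ALO1 and HUG1-PGM2. HUG1-ALO1 in trifluoperazine with MTX was of the same order, at 23.5 and 11.9, the second below both of its fluconazole values. Without MTX, fluconazole left 56.0 ± 7.21, 73.4 ± 0.271 and 68.3 ± 5.30 effective strains in HUG1-ADE17, HUG1-ALO1 and HUG1-PGM2 (SD, n = 2). In the reference it left only 27.1 ± 0.818. Fluconazole without MTX thus lay between the drug-free medium and fluconazole with MTX in all 3 HUG1 pools, and the 2 fluconazole groups did not overlap.

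Most strains that changed with MTX lost share. Without drug, 504 of the 836 tested combinations were called at an adjusted p under 0.05 by edgeR's quasi-likelihood test with Benjamini-Hochberg adjustment over all 15974 combinations of the series. That is 60.3%, beside 54.4% over all pools. Of the 504, 70 rose (8.37% of those tested, beside 7.31% over all pools) and 434 fell (51.9%, beside 47.1%). The median log2 fold change was -2.54 in the HUG1 pools and -2.04 over all pools. By pool, 153 strains were called in HUG1-ADE17 (15 rose), 166 in HUG1-ALO1 (27 rose) and 185 in HUG1-PGM2 (28 rose).

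The other media gave 474 calls in 5-FC (99 rose), 540 in fluconazole (62 rose), 396 in metformin (52 rose) and 461 in trifluoperazine (67 rose). These were 56.7%, 64.6%, 47.4% and 55.1% of the tested combinations. The rises were 11.8%, 7.42%, 6.22% and 8.01% of those tested, and the falls 44.9%, 57.2%, 41.1% and 47.1%. Of the 540 calls in fluconazole, 501 had groups without overlap, and a fit to only the libraries compared called 359. Over all pools the shares called were 49.7% in 5-FC (7.51% higher, 42.2% lower), 57% in fluconazole (10.5% higher, 46.6% lower), 35.1% in metformin (5.07% higher, 30% lower) and 51.7% in trifluoperazine (6.39% higher, 45.3% lower). HUG1-PGM2 ranked between 3 and 14 among the 62 pools by its share of calls, from the most calls, in the 5 media. HUG1-ALO1 ranked between 4 and 46 and HUG1-ADE17 between 13 and 43.

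How many strains count as higher depends on the scale to which shares are tied. The shares above are tied to the pool's total, which leading strains can dominate. With trimmed mean (TMM) scaling within each pool, 183 of 502 calls without drug were higher, in place of 70 of 504, and the corresponding numbers were 204 of 512 in 5-FC, 153 of 473 in fluconazole, 155 of 414 in metformin and 165 of 463 in trifluoperazine. In HUG1-PGM2 in metformin the higher calls became the majority, with 96 of 165. TMM over whole libraries gave 73 higher of 405 without drug, so the number of rises there stayed near 70. It gave 137 of 400 in 5-FC, 101 of 384 in fluconazole, 80 of 246 in metformin and 85 of 370 in trifluoperazine. The median log2 fold change of all combinations of the series without drug moved from -2.04 to -0.79 with TMM within pools and to -0.97 with TMM over libraries.

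In MTX without drug, HUG1-ADE17 had another leading strain than HUG1-ALO1 and HUG1-PGM2. By mean share, HUG1-ADE17 was led by strain 658, whose share was 0.0681% and 0.0674% without MTX and 15.7% and 8.26% with MTX, a 177-fold rise (log2 fold change 7.47, SE 1.01, edgeR adjusted p = 7.08e-06). Strain 1069 followed, with 0.851% and 1.22% without MTX and 7.41% and 8.11% with MTX (7.50-fold, adjusted p = 0.00346). Strain 598 came next, with 0.0443% and 0.0857% without MTX and 5.38% and 8.84% with MTX (109-fold, log2 6.74, SE 1.05, adjusted p = 2.88e-05). In all 3, both libraries with MTX lay above both without, and strains 658 and 598 had been among the rare strains of the pool. The lead of strain 658 came from replicate A. In replicate B with MTX, strain 598 and strain 673 (8.40%) lay above it.

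HUG1-ALO1 and HUG1-PGM2 were both led by strain 838, which was called higher without drug in 45 of the 62 pools. In HUG1-ALO1 it held 6.61% and 7.97% without MTX and 23.9% and 32.8% with MTX (3.89-fold, edgeR adjusted p = 0.00268). In HUG1-PGM2 it held 6.46% and 6.64% without MTX and 14.4% and 22.5% with MTX (2.82-fold, adjusted p = 0.0309), a call that was lost without replicate B with MTX and without either replicate lacking MTX (adjusted p up to 0.171). Strain 838 in HUG1-ADE17 had 2.77% and 3.01% without MTX and 7.73% and 3.59% with MTX, which did not pass the test (adjusted p = 0.316).

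The next strains in HUG1-ALO1 were 1020, with 1.87% and 3.26% without MTX and 10.2% and 7.42% with MTX, and 1069, with 0.771% and 0.807% without MTX and 5.52% and 3.30% with MTX. Strain 1020 rose 3.43-fold (edgeR adjusted p = 0.0260, lost without replicate A with MTX or replicate A without MTX, up to 0.178) and strain 1069 rose 5.59-fold (adjusted p = 6.97e-04). In HUG1-PGM2, strain 1069 went from 0.488% and 0.481% to 7.54% and 4.74% (12.7-fold, adjusted p = 2.27e-05), and strain 642 from 0.441% and 0.469% to 3.93% and 4.33% (9.09-fold, adjusted p = 1.14e-04). Groups did not overlap for any of these. Among the 62 pools, the mean share of strain 1020 with MTX without drug was highest in HUG1-ALO1 at 8.79%, and that of strain 642 was highest in HUG1-PGM2 at 4.13%, next to 4.11% in ERG27_ACF2.

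**Figure D2:**
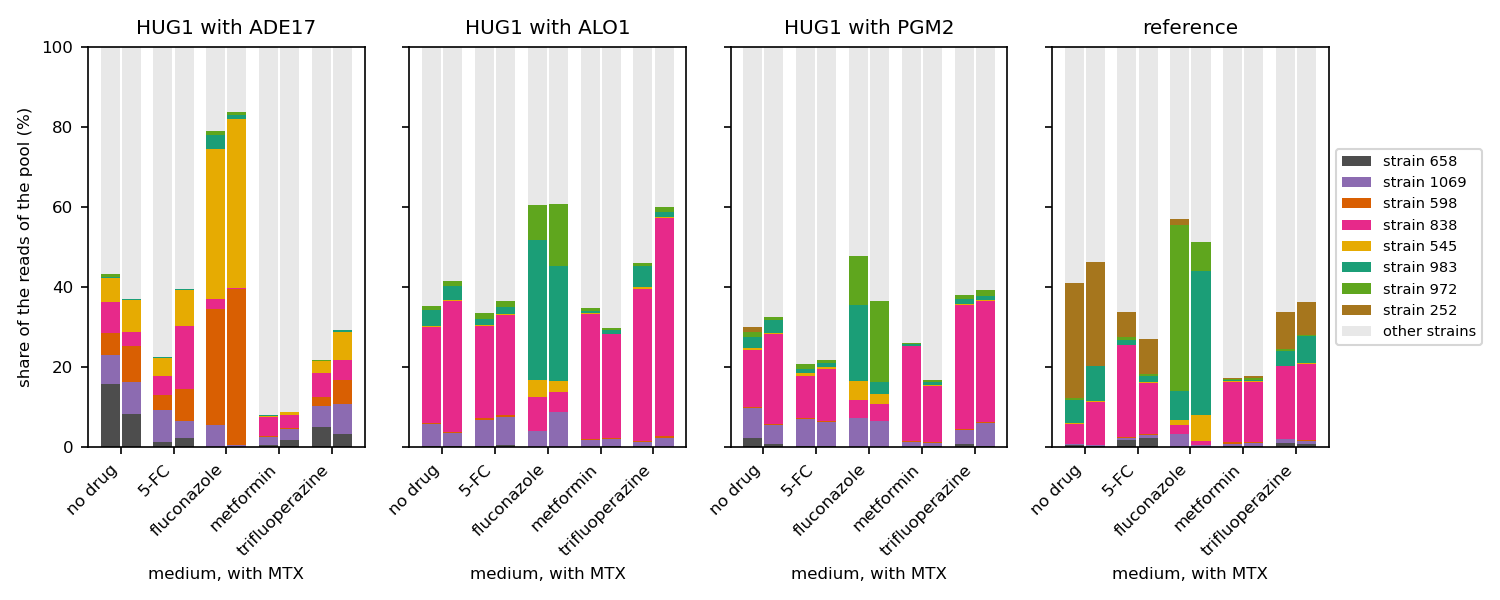
Shares of the reads of a pool (%, stacked to 100) held by 8 strains in the libraries with MTX, for the 3 HUG1 pools and the reference pool. Each pair of bars is replicates A and B of a medium, and light grey stands for all other strains. Strains 545 and 598 together fill 66.0% and 81.3% of HUG1-ADE17 in fluconazole, and strains 983 and 972 hold 43.8% and 44.1% of HUG1-ALO1 there.

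Strain 598 separated HUG1-ADE17 from the other HUG1 pools. It rose in HUG1-ADE17 in 4 of the 5 media: from 0.0869% and 0.0540% to 3.86% and 7.98% in 5-FC (84.1-fold, edgeR adjusted p = 4.58e-05), from 1.87% and 0.0820% to 28.8% and 39.0% in fluconazole (34.7-fold, adjusted p = 1.95e-04) and from 0.0963% and 0.0950% to 2.34% and 6.04% in trifluoperazine (43.8-fold, adjusted p = 1.38e-04), beside the 109-fold rise without drug. With metformin it went from 0.0860% and 0.0919% to 0.308% and 0.280%, which did not pass the test (log2 1.72, adjusted p = 0.123). The groups with and without MTX did not overlap in any of the 5 media, metformin included.

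In HUG1-ALO1 and HUG1-PGM2 the same strain was not called in any medium. Without drug it had 0.316% and 0.176% without MTX and 0.170% and 0.253% with MTX in HUG1-ALO1 (log2 -0.22, adjusted p = 0.821), and 0.114% and 0.130% against 0.0514% and 0.137% in HUG1-PGM2 (log2 -0.38, adjusted p = 0.684). These groups overlapped. In the reference pool it fell without drug, from 0.273% and 0.240% to 0.0351% and 0.0350% (log2 -2.87, edgeR adjusted p = 0.00334).

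The difference of its MTX effect between partners was tested directly. HUG1-ADE17 exceeded HUG1-ALO1 by 6.96 on the log2 scale without drug (SE 1.28, edgeR adjusted p = 1.71e-04 over 4112 strains in pools that share a protein), by 6.58 in 5-FC (3.15e-04), by 6.74 in fluconazole (1.65e-04) and by 6.23 in trifluoperazine (7.04e-04). It exceeded HUG1-PGM2 by 7.12 without drug (SE 1.27, adjusted p = 1.09e-04), 5.96 in 5-FC (6.47e-04), 5.71 in fluconazole (6.86e-04) and 6.77 in trifluoperazine (2.81e-04). In metformin the differences were 1.75 and 1.81 and did not pass (adjusted p of 0.464 and 0.432). All 8 called differences kept their call when any library was left out, though the fluconazole difference from HUG1-ALO1 then moved to 3.87 without replicate B and 11.12 without replicate A of fluconazole without MTX, where the strain's shares lay far apart. The fluconazole difference from HUG1-PGM2 lost its call under 2 of 7 other settings, with an adjusted p of up to 0.0811.

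Against the reference pool, the MTX effect on strain 598 in HUG1-ADE17 was higher by 9.61 without drug (edgeR adjusted p = 8.74e-06), 7.89 in 5-FC (6.48e-05), 6.29 in fluconazole (3.25e-04) and 7.06 in trifluoperazine (1.54e-04). The metformin difference was 1.30 (adjusted p = 0.507). The fluconazole difference kept its call in each fit that left out a library but moved to 3.30 and 10.72 without the same libraries, and lost it under 1 other setting (0.108). Within HUG1-ADE17, the effect in metformin was lower than without drug by 5.02 (SE 1.23, adjusted p = 0.0120), which was lost when the drug-free replicate A without MTX or the metformin replicate B with MTX was left out (up to 0.0641) and under 1 of 8 other settings (0.109). Over all 62 pools without drug, strain 598 was called higher in 10 and lower in 7. Its mean share with MTX was highest in HUG1-ADE17 at 7.11%, and the next pool was TPO1_TPO2 at 2.51%.

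Pools that share ADE17 but not HUG1 did not follow one pattern for strain 598. Without drug it fell in ADE17_GIS2 from 5.99% and 5.28% to 1.41% and 1.77% (log2 -1.83, edgeR adjusted p = 0.00183) and in ADE17_PGM2 from 0.570% and 0.668% to 0.0344% and 0.0221% (log2 -4.45, adjusted p = 8.24e-04). In ALO1_ADE17 it stayed rare, at 0.0050% and 0.0104% without MTX and 0.0076% and 0.0143% with MTX (adjusted p = 0.709). In fluconazole it rose in ADE17_GIS2 from 6.72% and 6.49% to 25.2% and 31.4% (log2 2.10, adjusted p = 6.20e-04). HUG1-ADE17 and ADE17_GIS2 were the pools with the highest mean shares of strain 598 in fluconazole with MTX, at 33.9% and 28.3%. ADE17_GIS2 had the highest in metformin (24.3%) and trifluoperazine (7.13%, with 4.19% in HUG1-ADE17) and nearly the same in 5-FC (5.81%, with 5.92% in HUG1-ADE17). In ADE17_GIS2 the strain was common without MTX too, and its change was called in metformin (log2 1.98, edgeR adjusted p = 0.00193) but not in trifluoperazine (0.50, 0.356) or 5-FC (0.42, 0.445).

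**Figure D3:**
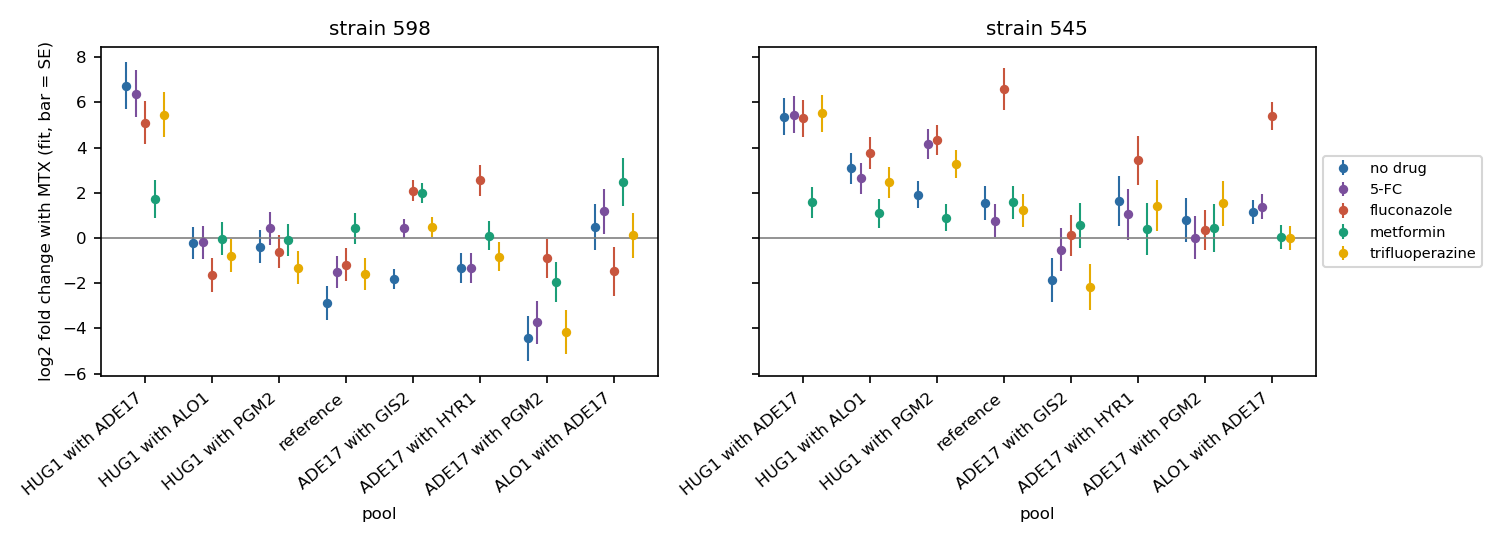
Fitted log2 fold change with MTX (points) and its standard error (bars) of strains 598 and 545 in the HUG1 pools, the reference pool and the other pools that hold ADE17, coloured by medium. Strain 598 lies between 5.11 and 6.74 in HUG1-ADE17 in all media but metformin, and near or below 0 in HUG1-ALO1 and HUG1-PGM2, while strain 545 rises in all 3 HUG1 pools outside metformin.

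Strain 658, the leader of HUG1-ADE17 without drug by mean share, rose in all 3 HUG1 pools but to different levels. In HUG1-ALO1 it went from 0.0264% and 0.0187% to 0.361% and 0.208% (12.6-fold, edgeR adjusted p = 0.00494, lost when replicate B without MTX was left out, at 0.0567). In HUG1-PGM2 it went from 0.0781% and 0.105% to 2.33% and 0.833% (17.3-fold, adjusted p = 4.37e-04). The excess of HUG1-ADE17 was 3.80 over HUG1-ALO1 (adjusted p = 0.0392) and 3.36 over HUG1-PGM2 (0.0470) on the log2 scale. Both calls were lost whichever of the 4 libraries was left out (adjusted p up to 0.208 and 0.251). Its mean share with MTX without drug was 12.0% in HUG1-ADE17 and 1.58% in HUG1-PGM2, the highest and the next of the 62 pools.

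Strain 658 did not rise in HUG1-ADE17 in fluconazole. With MTX it had 0 reads in replicate A and 0.0047% in replicate B, against 0.0047% and 0.0029% without MTX (log2 -0.27, edgeR adjusted p = 0.847). The MTX effect in fluconazole was lower than without drug by 7.73 (SE 1.41, adjusted p = 6.80e-04), a call lost when replicate A of fluconazole without MTX was left out (0.0793). In the other media it rose in HUG1-ADE17, by 4.71 on the log2 scale in 5-FC (edgeR adjusted p = 2.03e-04), 4.47 in metformin (6.07e-04) and 6.64 in trifluoperazine (1.84e-05). In 5-FC with MTX it held 1.40% and 2.41% of HUG1-ADE17, and 1.75% and 2.23% of the reference. The highest mean share of any pool there was 3.09%, in MID2_WSC2. HUG1-ADE17 had the highest in metformin (1.21%) and trifluoperazine (4.22%). Without drug, the reference with MTX held 0.473% and 0.220%.

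Strain 545 was picked out after its values were seen. In HUG1-ADE17 without drug it went from 0.143% and 0.195% to 6.02% and 8.05% (41.7-fold, log2 5.37, SE 0.82, edgeR adjusted p = 2.29e-05), and in fluconazole from 1.65% and 0.363% to 37.2% and 42.3% (39.6-fold, adjusted p = 2.48e-05). It also rose without drug in HUG1-ALO1 (log2 3.08) and HUG1-PGM2 (log2 1.92, adjusted p = 0.0104, lost when either replicate without MTX was left out, up to 0.0724). Its excess in HUG1-ADE17 was 3.46 over HUG1-PGM2 (adjusted p = 0.0152, lost in 4 of 4 such fits, up to 0.135) and 2.29 over HUG1-ALO1 (adjusted p = 0.133). In fluconazole it was called higher in 53 of the 62 pools, the reference included.

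HUG1-ALO1 and HUG1-PGM2 had other leaders in fluconazole with MTX. Strain 983 led both replicates of HUG1-ALO1 and replicate A of HUG1-PGM2, and strain 972 led replicate B of HUG1-PGM2. Second place went to strain 689 in HUG1-ALO1 replicate A (13.5%) and to strain 94 in HUG1-PGM2 replicate B (10.1%). Strain 689 was also second in the reference there, with 13.8% and 20.9%. Strain 983 in HUG1-ALO1 and 972 in HUG1-PGM2 came from the naming rule. In HUG1-ALO1, strain 983 went from 0.220% and 0.345% to 34.9% and 28.8% (113-fold, edgeR adjusted p = 6.78e-07) and strain 972 from 0.0866% and 0.200% to 8.89% and 15.3% (84.4-fold, adjusted p = 7.67e-07). In HUG1-PGM2, strain 972 went from 0.0165% and 0.125% to 12.3% and 20.3% (231-fold, adjusted p = 1.46e-06), and strain 983 from 0.332% and 0.0906% to 18.8% and 3.04%, a 51.6-fold rise of the mean. With MTX, both libraries lay above both without MTX for each.

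Together, strains 972 and 983 held 43.8% and 44.1% of HUG1-ALO1, 31.0% and 23.3% of HUG1-PGM2 and 4.57% and 1.58% of HUG1-ADE17 in fluconazole with MTX. In the reference pool they held 48.7% and 43.2%. The MTX effect on strain 972 in HUG1-ADE17 differed from that in HUG1-PGM2 by -3.98 (edgeR adjusted p = 0.0162), which was lost when replicate B with MTX or replicate A without MTX was left out (up to 0.131) and under 1 of 7 other settings (0.205). For strain 983 the difference was -1.11 (adjusted p = 0.554). Both strains rose in fluconazole in most pools, 983 in 61 of 62 and 972 in 54 of 62, so their rise was not limited to HUG1 pairs. Relative to the drug-free medium, the MTX effect on strain 972 was higher in fluconazole by 4.21 in HUG1-ALO1 (adjusted p = 9.89e-04) and 4.59 in HUG1-PGM2 (0.00333).

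In trifluoperazine with MTX, strain 838 led HUG1-ALO1 and HUG1-PGM2. It held 38.2% and 54.6% of HUG1-ALO1 (edgeR adjusted p of the rise 0.00144) and 31.0% and 30.2% of HUG1-PGM2 (0.00219). The lower of the HUG1-ALO1 values came from the library with 9155 reads. Strain 838 was called higher in trifluoperazine in 47 of the 62 pools, and held 18.1% and 19.2% of the reference with MTX. By mean share there, HUG1-ALO1 ranked 19 and HUG1-PGM2 40. Its MTX effect was not called different from that without drug (log2 0.19 in HUG1-ALO1, edgeR adjusted p = 0.996, and 0.84 in HUG1-PGM2, 0.865). Strain 1020 was the second strain in both replicates of HUG1-PGM2 there, with 10.1% and 9.64%, and its mean share with MTX in HUG1-PGM2 was the highest of the 62 pools in 5-FC, metformin and trifluoperazine.

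Many strains fell across partners and media. In a single medium, 30% to 47.1% of all combinations of the series were called lower, which is no background for the joint counts below. Of 253 strains tested in all 3 HUG1 pools, 58 were called lower in all 15 tests of pool and medium, 0 were called higher in all 15 (by edgeR; 70 rises were called without drug alone), and 4 were called in none. Another 51 were called higher in at least 1 test and lower in at least 1. Without drug, 111 fell in all 3 pools, 5 rose in all 3, and 0 rose in 1 pool and fell in another by this test. Fluconazole was the only medium of the 5 in which strains were called in opposite directions between HUG1 pools, and there were 7 of them. Replicates also differed most in fluconazole, where a fit to only the libraries compared called 359 combinations in place of 540. The same counts over other sets of 3 pools were not made, so whether the joint counts are unusual is not known.

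The 5 strains with the lowest mean log2 fold change over the 15 tests were 692 (-10.26), 476 (-9.93), 128 (-9.36), 337 (-9.11) and 923 (-8.87). Strain 476 had been the most common of these at time 0, with 12.4%, 9.004% and 11.8% of the reads of HUG1-ADE17, HUG1-ALO1 and HUG1-PGM2. After 96 h without drug it had 4.58% and 6.65% without MTX and 0.0031% and 0.0039% with MTX in HUG1-ADE17 (1596-fold lower, edgeR adjusted p = 2.56e-06). In HUG1-PGM2 it had 4.79% and 8.93% without MTX and 0.0021% and 0.0031% with MTX (2622-fold lower, adjusted p = 1.29e-07). In HUG1-ALO1 it had 2.31% and 2.69% without MTX, and 0 and 1 reads with MTX (pooled ratio 3998, 95% counting interval 717 to 157957, adjusted p = 3.91e-07). All 5 strains also fell in the reference pool without drug, strain 476 from 1.58% and 2.60% to 1 and 2 reads (adjusted p = 3.00e-05), so these falls were shared with the reference.

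Several of the largest falls in single pools ended at 0 reads, and the others at a few. Among the latter, strain 731 in HUG1-ALO1 in fluconazole went from 9153 and 9308 reads to 1 and 1 (pooled ratio 10359, 95% counting interval 2867 to 85546). In HUG1-ADE17, strain 271 went from 124 and 366 reads to 0 and 0 without drug, at least 201-fold lower against a floor of 3 reads per group (edgeR adjusted p = 7.64e-06), and strain 731 from 334 and 2132 reads to 0 and 0 in fluconazole, at least 1896-fold lower. That bound rests on replicate B, since the shares of strain 731 without MTX were 0.174% and 6.24%. In HUG1-ALO1, strain 775 went from 988 and 2176 reads to 0 and 0 without drug, at least 677-fold lower, and strain 692 was at least 1089-fold lower in 5-FC. In HUG1-PGM2, strain 923 went from 285 and 1073 reads to 0 and 0 without drug, at least 379-fold lower, and strain 692 was at least 565-fold lower in trifluoperazine. Of the strains named here, 731, 775, 692 and 923 were among the 58 that fell in all 3 HUG1 pools and all 5 media. Intervals and floors cover counting error only, because PCR copies of a molecule are counted separately.

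The largest rises differed between the pools as well. In HUG1-ALO1, strain 983 had the largest rise without drug, from 0.141% and 0.105% to 3.94% and 3.43% (30.0-fold), and in trifluoperazine (51.6-fold). In 5-FC it was strain 412, which went from 25 and 1 reads to 319 and 264 reads (56.6-fold). In HUG1-PGM2 the largest rises belonged to strain 999 without drug, from 1 and 8 reads to 418 and 266 reads (126-fold, edgeR adjusted p = 3.02e-04), to strain 996 in 5-FC (46.2-fold) and to strain 359 in trifluoperazine, from 9 and 1 reads to 302 and 247 reads (136-fold, adjusted p = 1.81e-04). These strains were rare without MTX, so the size of the fold rests on a handful of reads. In metformin the largest rises were smaller, 22.3-fold for strain 658 in HUG1-ADE17, 9.31-fold for strain 804 in HUG1-ALO1 (lost unless replicate B with MTX was the library left out, adjusted p up to 0.162) and 11.3-fold for strain 658 in HUG1-PGM2 (lost without replicate A lacking MTX, 0.0576).

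The drugs changed the MTX effect to different extents. In fluconazole, 178 of 836 combinations differed from the drug-free medium (21.3%, beside 25% over all pools), of which 59 had a higher effect (7.06%, beside 13.9% over all pools). By pool there were 50 in HUG1-ADE17, 56 in HUG1-ALO1 and 72 in HUG1-PGM2. A fit to only the libraries compared called 60 of the 836 combinations in fluconazole. With TMM over whole libraries, 68 of 109 calls were higher, so the direction of the balance was not settled. Metformin changed 71 (8.49%, beside 11.8% over all pools), of which 60 had a higher effect (7.18%, beside 10.8%). HUG1-PGM2 held 41 of the 71, and 15 each were in the other pools. With TMM within pools 31 of 47 metformin calls were higher, with TMM over whole libraries 6 of 6, and leaving out a library left 14 (metformin without MTX, replicate A) to 51 calls.

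For 5-FC, 1 combination was called (beside 0.0939% over all pools), with 90 at an unadjusted p under 0.05. Trifluoperazine gave 0 calls by edgeR in the HUG1 pools and 0% over all pools, with 67 at an unadjusted p under 0.05 and 5 calls by DESeq2. The 5-FC call was strain 271 in HUG1-ADE17, which kept 169 and 132 reads with MTX in 5-FC but had 0 and 0 in the drug-free medium. Its fitted difference of 10.64 (adjusted p = 0.0287) is no bound because of those zeros, and the call was lost in 7 of 8 fits that left out a library (up to 0.281).

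The largest differences from the drug-free medium in the other drugs were as follows. Strain 392 in HUG1-ADE17 fell from 399 and 865 reads to 0 and 2 without drug, and had 81 and 7 reads without MTX and 12 and 15 with MTX in fluconazole (difference 9.23, edgeR adjusted p = 1.88e-04). Strain 412 in HUG1-ALO1 had the opposite sign, rising from 14 and 7 to 132 and 177 reads without drug and going from 56 and 1816 to 1 and 2 reads in fluconazole (difference -13.01, adjusted p = 1.50e-04). Strain 419 in HUG1-PGM2 kept 32 and 73 reads with MTX in metformin and had 0 and 0 without drug (difference 8.79, adjusted p = 0.00284). The replicates of strain 412 without MTX were far apart, at 0.0683% and 0.779% in fluconazole and 0.0184% and 0.0042% without drug.

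Between partners, few strains differed in their MTX effect. Without drug, 16 of 255 strains differed between HUG1-ADE17 and HUG1-ALO1, 20 of 260 between HUG1-ADE17 and HUG1-PGM2, and 7 of 271 between HUG1-ALO1 and HUG1-PGM2. Together these 43 of 786 were 5.47%, beside 15.7% over the 20 pairs of pools that share HUG1, ADE17, ALO1 or PGM2. Leaving out any 1 of the 4 drug-free libraries left 10 (replicate B without MTX) to 25 calls (replicate A with MTX). The first named pool was higher in 32 of the 43, in 43 of 67 with TMM within pools and in 31 of 52 with median of ratios.

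The share called was below that over the 20 pairs in each drug as well. In 5-FC 61 of 786 differed (7.76%, beside 17.1%), in fluconazole 125 (15.9%, beside 25.1%), in metformin 5 (0.636%, beside 6.42%, with 44 at an unadjusted p under 0.05) and in trifluoperazine 40 (5.09%, beside 12.5%). Leaving out a library left 17 to 28, 69 (fluconazole with MTX, replicate B) to 150, 0 and 7 to 17. Fits to only the libraries compared called 16 in fluconazole and 21 in metformin. HUG1-ALO1 against HUG1-PGM2 had the lowest share of called strains of all 20 pairs in each of the 5 media. It was 2.58% without drug and in 5-FC, 11.4% in fluconazole, 0% in metformin (0 of 271, with 8 at an unadjusted p under 0.05) and 1.85% in trifluoperazine. The 17 other pairs had a median of 19.5% without drug, with a range of 5.95% to 29.3%. Most of them include a pool with ADE17. Those that do not had 8.89% (ALO1_HYR1 with ALO1_UIP4), 7.80% (ALO1_HYR1 with HUG1-ALO1) and 5.95% (ALO1_UIP4 with HUG1-ALO1). The pairs of HUG1-ADE17 with HUG1-ALO1 and HUG1-PGM2 had 6.27% and 7.69%, so such low shares were not particular to pairs that share HUG1. The pairs differ in depth and in how many strains were tested, and the part of these in the shares was not tested.

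Directions between partners were not stable to scaling. The first named pool was higher in 44 of 61 calls in 5-FC, 72 of 125 in fluconazole, 4 of 5 in metformin and 24 of 40 in trifluoperazine. With TMM within pools it was higher in 54 of 99, 38 of 148, 8 of 36 and 43 of 49, and with median of ratios in 39 of 71, 55 of 153, 3 of 7 and 40 of 44. With totals without strain 838 it was higher in 1 of 2 in metformin and 16 of 45 in trifluoperazine. The median difference over the tested strains was -0.11 in metformin and -0.15 in trifluoperazine, opposite in sign to the majority of the calls there.

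**Figure D4:**
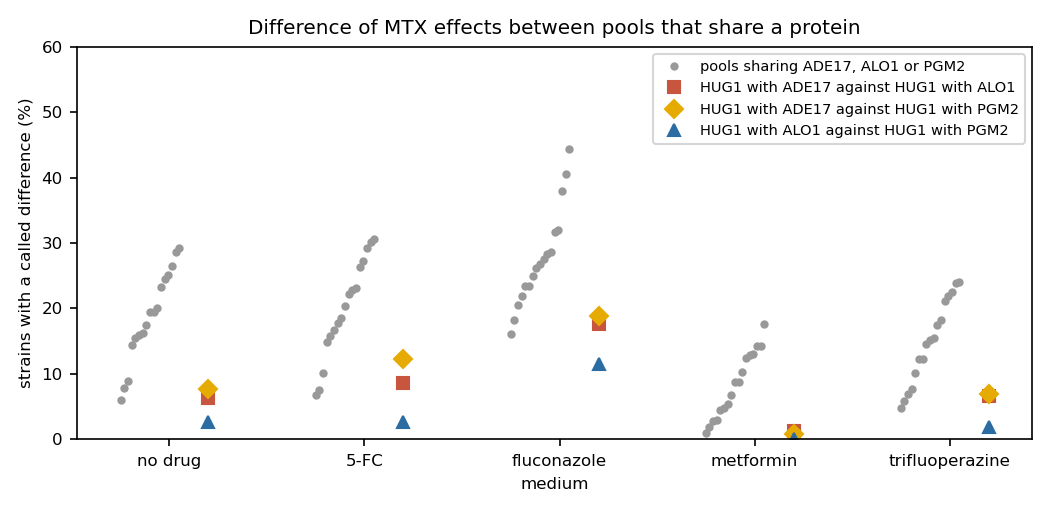
Share of tested strains (%) whose MTX effect was called different between 2 pools, by medium. Grey points are the 17 pairs of pools that share ADE17, ALO1 or PGM2, and coloured symbols are the 3 pairs of HUG1 pools. HUG1-ALO1 against HUG1-PGM2 is the lowest of the 20 pairs in each medium, at 2.58% without drug and 11.4% in fluconazole.

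**Figure D5:**
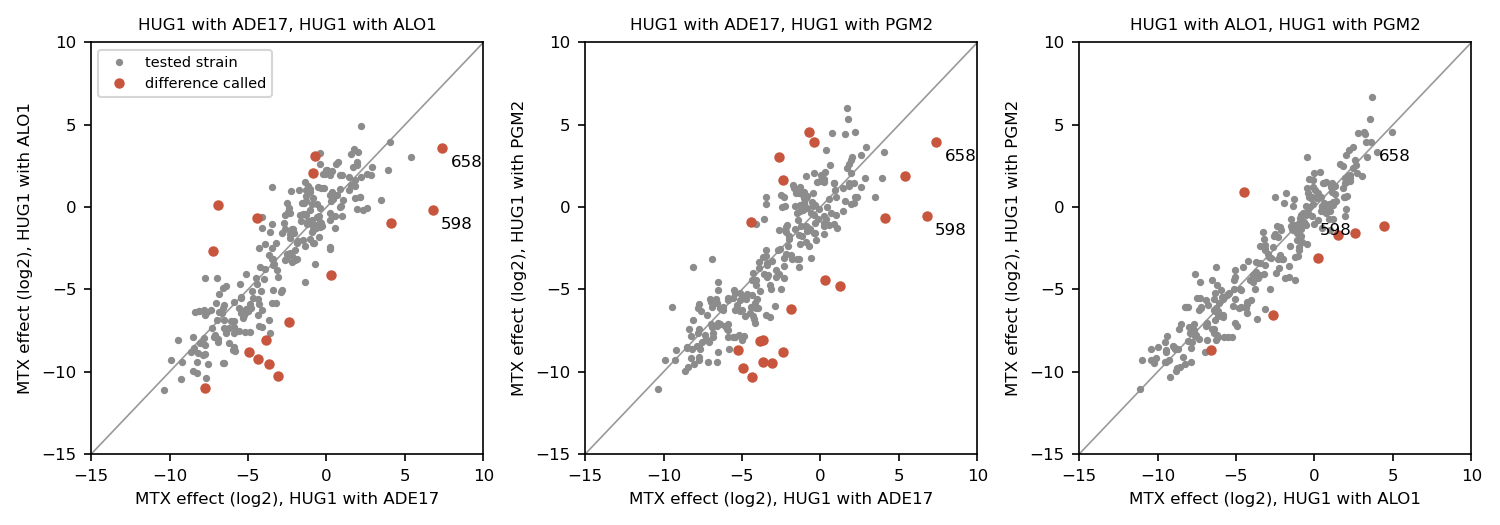
MTX effect on each tested strain without drug (log2 fold of the share with over without MTX, mean of the replicates) in one HUG1 pool against another. Grey points are strains, red points those with a called difference, and the line marks equal effects. The called strains number 16, 20 and 7 from left to right, and strains 598 and 658 lie to the right of the line in the panels with HUG1-ADE17.

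The strains with the largest partner differences without drug were mostly rare. Strain 419 had 123 and 322 reads without MTX and 2 and 186 with MTX in HUG1-ADE17, against 425 and 701 without MTX and 0 and 0 with MTX in HUG1-ALO1, and 201 and 711 against 0 and 0 in HUG1-PGM2. Its fitted differences were 10.29 (edgeR adjusted p = 0.00442) and 9.49 (0.00679), and they dropped to 5.43 and 4.64 at the lowest and lost their calls without replicate B with MTX (adjusted p of 0.449 and 0.382), the second also without replicate B lacking MTX. Its replicates with MTX in HUG1-ADE17, 2 and 186 reads, were themselves far apart. Strain 335 had the opposite sign, with 38 and 249 reads without MTX and 2 and 0 with MTX in HUG1-ADE17 and 72 and 83 against 28 and 123 in HUG1-ALO1 (difference -7.23, adjusted p = 0.00182, lost without replicate B of either group, up to 0.0992).

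Strain 888 fell in HUG1-ADE17 from 14 and 91 reads to 4 and 13 and rose in HUG1-PGM2 from 34 and 124 reads to 342 and 670 (difference -6.20, edgeR adjusted p = 0.0126). Between HUG1-ALO1 and HUG1-PGM2, strain 412 went from 14 and 7 to 132 and 177 reads in HUG1-ALO1 and from 17 and 16 to 13 and 3 reads in HUG1-PGM2 (difference 5.55, adjusted p = 0.0195), and strain 257 from 18 and 43 to 0 and 1 and from 29 and 177 to 97 and 151 (difference -6.30, adjusted p = 0.0124). The calls on strains 888, 412 and 257 were lost whichever library was left out, with adjusted p of up to 0.158, 0.115 and 0.134.

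Among the more abundant strains, 525 differed between HUG1-ADE17 and HUG1-PGM2 in 5-FC. It went from 0.915% and 1.12% to 0.236% and 0.183% in HUG1-ADE17 and from 0.781% and 0.331% to 2.92% and 5.19% in HUG1-PGM2 (difference -5.15, SE 1.28, edgeR adjusted p = 0.00393, lost without replicate B of either group, up to 0.0842). The direction was the same in metformin (difference -4.22, adjusted p = 0.0348, lost in 4 of 4 fits, up to 0.393). In both media the strain lost share with MTX in HUG1-ADE17 and gained it in HUG1-PGM2, with no overlap between the groups of either pool.

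Against the reference pool, strains of the HUG1 pools mostly had the higher MTX effect without drug when tied to pool totals. There, 149 of 814 strains differed (18.3%, beside 26.6% over the 61 protein pairs), 124 of them higher in the HUG1 pool (15.2%, beside 21.9%). By pool these were 52 of 261 in HUG1-ADE17, 44 of 273 in HUG1-ALO1 and 53 of 280 in HUG1-PGM2, which rank 16, 6 and 13 of 61 from the lowest share. Leaving out any 1 of the 4 drug-free libraries left 55 (replicate B without MTX) to 85 calls (replicate B with MTX). The median difference was 1.12, beside 1.56 over all pools, and it moved to 0.61 with TMM within pools and -0.34 with median of ratios. The split followed: 95 of 130 calls were higher with TMM within pools, and 40 of 98 with median of ratios.

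In the drugs, 114 strains differed from the reference in 5-FC (14.005%, beside 18.1% over all pools), 81 of them higher (9.95% of those tested, beside 13.1%). In fluconazole 204 differed (25.1%, beside 26%), 64 higher (7.86%, beside 14.3%). In metformin 57 differed (7.002%, beside 17.3%), 35 higher (4.30%, beside 14.1%). In trifluoperazine 100 differed (12.3%, beside 19.8%), 61 higher (7.49%, beside 11.8%). Leaving out a library left 30 to 69, 129 (fluconazole with MTX, replicate B) to 198, 13 to 27 and 29 to 49. Fits to only the libraries compared called 6 in fluconazole, but 215 in 5-FC, 98 in metformin and 183 in trifluoperazine. The fluconazole split turned with scaling, to 138 higher of 202 with TMM within pools and 102 of 209 with median of ratios. In metformin it was 99 of 113 and 28 of 69, in trifluoperazine 93 of 130 and 39 of 107, and in 5-FC with median of ratios 42 of 101. Only fluconazole among the 5 media had more strains lower than higher in the HUG1 pools when tied to pool totals.

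Some of the largest differences from the reference came from the reference side. Strain 521 held 7.85% and 9.88% of the reference pool in 5-FC without MTX and fell to 14 and 1 reads with MTX, while in HUG1-ALO1 it was at 0.0103% and 0.0162% without MTX and 0.0068% and 0.0036% with MTX (difference 9.46, edgeR adjusted p = 7.93e-06). It set the largest positive difference in HUG1-PGM2 in 5-FC, metformin and trifluoperazine (9.18, 8.44 and 6.95) and in HUG1-ADE17 in metformin (7.74) in the same way. The last of these, and that of HUG1-PGM2 in trifluoperazine, lost their calls without replicate B with MTX (adjusted p of 0.200 and 0.239). Strain 588 rose in the reference without drug, from 0.132% and 0.137% to 3.34% and 1.67%, and had 20 reads or fewer without MTX and 5 or fewer with MTX in HUG1-ADE17 (difference -6.68, adjusted p = 0.00124). Strain 588 gave the largest negative difference in HUG1-ALO1 too (-6.90, adjusted p = 0.00218).

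Others came from the HUG1 side. Strain 439 rose in HUG1-ADE17 in 5-FC from 0.122% and 0.248% to 0.792% and 0.816%, and fell in the reference from 78 and 128 reads to 1 and 0 (difference 9.84, edgeR adjusted p = 5.21e-05). Strain 888 rose in HUG1-PGM2 without drug from 0.0501% and 0.0555% to 0.181% and 1.04%, and fell in the reference from 0.141% and 0.172% to 0.0048% and 0.0044% (difference 8.60, adjusted p = 1.44e-04). Strain 798 fell in both but less in HUG1-ADE17, where it kept 0.116% and 0.552% with MTX against 0 and 0 reads in the reference, from 2.47% and 1.86% and from 1.55% and 2.37% without MTX (difference 11.39, adjusted p = 1.05e-04). In each of these 3 the replicates of the HUG1 pool with MTX lay above those of the reference.

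As a whole, the MTX effects of HUG1-ALO1 and HUG1-PGM2 resembled each other more than either resembled HUG1-ADE17. Across strains without drug, Pearson's r of the mean log2 effects was 0.934 between HUG1-ALO1 and HUG1-PGM2 (271 strains), 0.858 between HUG1-ADE17 and HUG1-ALO1 (255) and 0.848 between HUG1-ADE17 and HUG1-PGM2 (260). These are descriptions across strains counted in the same libraries, and strains are not independent replicates. The effect of replicate A correlated with that of replicate B within a pool at 0.812 in HUG1-ADE17, 0.910 in HUG1-ALO1 and 0.920 in HUG1-PGM2, so the pool with the lowest likeness to the others was also the least repeatable. The difference between these correlations was not tested.

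Without drug, HUG1-ALO1 was the nearest of 61 pools to HUG1-ADE17 and to HUG1-PGM2, and HUG1-PGM2 was nearest to HUG1-ALO1. PMC1_GTR2, a pair that shares no protein with them, came next for all 3, with r of 0.848, 0.905 and 0.909 in the order ADE17, ALO1 and PGM2 (246, 250 and 249 strains). In the next place were HUG1-PGM2 for HUG1-ADE17 and PMC1_CTR2 for HUG1-ALO1 (0.897, 249 strains) and HUG1-PGM2 (0.891, 251 strains). The nearness was not mutual, as HUG1-ADE17 ranked only 14 of 61 for HUG1-ALO1 and 12 of 61 for HUG1-PGM2. Over the 58 other protein pairs the medians were 0.737, 0.810 and 0.812. The order changed with the medium: PMC1_GTR2 was nearest to HUG1-ADE17 (0.731, with 0.731 for HUG1-ALO1) and HUG1-PGM2 (0.853) in fluconazole, and to HUG1-PGM2 in trifluoperazine (0.900), while HUG1-PGM2 was nearest to HUG1-ADE17 there (0.853).

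Pools that share the partner instead of HUG1 varied. ADE17_PGM2 had r of 0.544, 0.579 and 0.557 with HUG1-ADE17, HUG1-ALO1 and HUG1-PGM2, and with ADE17_GIS2 and ADE17_HYR1 it took the last 3 places of 61 for each HUG1 pool. ALO1_UIP4 had 0.776, 0.870 and 0.869, ALO1_HYR1 0.783, 0.828 and 0.820, and ALO1_ADE17 0.746, 0.765 and 0.763. Within a HUG1 pool, the drug-free effect correlated with that in 5-FC, metformin and trifluoperazine at 0.815 to 0.941, and with that in fluconazole at 0.597 in HUG1-ADE17, 0.724 in HUG1-ALO1 and 0.669 in HUG1-PGM2. In fluconazole the replicates themselves correlated at 0.586, 0.775 and 0.728.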

How the data were processed

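Barcode reads were deposited by the authors as raw counts per strain and pool, 1 table per library; the barcodes had been amplified from genomic DNA in a two-step PCR, per the labels' protocols, and how reads were assigned is not given in the sources used here. Groups were taken from the sample labels. Counts of each strain in each pool, with the pool's total as offset, were fitted with edgeR 4.0.16 (R 4.3.3; quasi-likelihood, 20 libraries, mean of at least 10 reads, Benjamini-Hochberg adjusted p under 0.05 over all tested strains). MTX effects, their differences between media, from the reference pool and between pools that share a protein were tested. Effective numbers were compared by exact permutation in Python 3.11.15 (scipy 1.17.1). Alternatives were TMM, median of ratios, other filters, DESeq2 1.42.0, the replicate block, left-out libraries and, chosen after seeing the data, totals without strain 838. The fits were tested on simulated data, where large changes were recovered with the right sign but changes of a few fold were mostly missed, so a strain that was not called is not shown to be unchanged.

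Strains were named by rule: the largest called rise and fall per pool and medium with replicates that do not overlap and a mean of at least 50 reads, the 3 largest shares with MTX without drug, and the largest called differences of consistent sign. Strains 545, 972, 983 outside its rule-named cells, and the follow-up of 598 and 658 were chosen after their values were seen. The members and lists were chosen with earlier results of these data known. Replicate numbers did not pair the samples: over 45 pairs of groups, correlations of deviations were -0.121 to 0.0882 over all pools, none over 0.1, and -0.131 to 0.141 over the HUG1 pools, 3 of them over 0.1. Protein names matched RefSeq for 44 of 44. The PCR reads carry no stated molecular identifiers, and the depth per pool limits precision.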

Additional observations from a re-analysis of the deposited data

Results flagged for a closer look

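Several results differed between media or between partners by a test of the difference itself. From the drug-free medium, the log2 MTX effect differed in HUG1-ADE17 for strain 271 in 5-FC (10.64) and strain 392 in fluconazole (9.23). It differed in HUG1-ALO1 for strain 412 in fluconazole (-13.01), and in HUG1-PGM2 for strains 419 (8.79) and 359 (-5.92) in metformin. Strain 359 rose in HUG1-PGM2 without drug from 2 and 52 to 909 and 482 reads, and in metformin had 30 and 2 reads without MTX and 5 and 50 with MTX. Its call (edgeR adjusted p = 0.0147) was lost in 3 of 8 fits that left out a library, with values from -8.13 to -3.31.

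Between partners without drug, HUG1-ADE17 minus HUG1-ALO1 was 10.29 for strain 419 and -7.23 for strain 335, and HUG1-ADE17 minus HUG1-PGM2 was 9.49 for strain 419 and -6.20 for strain 888. HUG1-ALO1 minus HUG1-PGM2 was 5.55 for strain 412 and -6.30 for strain 257. The decrease of the effective number of strains differed by -0.44 between HUG1-ADE17 and HUG1-PGM2, a call lost in 14 of 20 fits that left out a library, with the replicate block and with the inverse Simpson index, and by -0.51 between HUG1-ALO1 and HUG1-PGM2. No cause of these differences was tested.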

How the results depend on the processing

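The falls of the effective number stayed between -1.85 and -1.67 (HUG1-ADE17), -1.93 and -1.74 (HUG1-ALO1) and -1.36 and -1.27 (HUG1-PGM2) when any library was left out. Of the pool differences, HUG1-ALO1 minus reference passed with the inverse Simpson index (-0.93, adjusted exact permutation p = 0.0347). HUG1-ADE17 minus HUG1-PGM2 failed with that index (-0.54, adjusted 0.132) and with the replicate block (-0.44, adjusted 0.0996), and was -0.53 to -0.34 with a library left out. The other ranges were -0.50 to -0.26 for HUG1-ADE17 minus reference, -0.56 to -0.36 for HUG1-ALO1 minus reference and -0.62 to -0.41 for HUG1-ALO1 minus HUG1-PGM2. HUG1-PGM2 minus reference ran from -0.061 (without trifluoperazine without MTX, replicate A) to 0.17, and HUG1-ADE17 minus HUG1-ALO1 from -0.036 (without fluconazole with MTX, replicate A) to 0.19, with -0.0045 without trifluoperazine with MTX, replicate B. Counts of MTX calls with a library left out were 424 to 439 (no drug), 384 to 428 (5-FC), 454 to 564 (fluconazole), 278 to 334 (metformin) and 377 to 389 (trifluoperazine). A lone replicate was then assumed to vary like the other groups, and fewer libraries alone lower counts. Fluconazole gave 359 MTX calls from only the libraries compared, and metformin 246 with TMM over whole libraries. Differences from no drug with a library left out were 0 to 1 (5-FC), 119 to 203 (fluconazole), 14 to 51 (metformin) and 0 to 1 (trifluoperazine). For 5-FC, TMM within pools and over libraries gave 0, only the libraries compared 10 and DESeq2 14. For fluconazole, TMM over libraries gave 109 and only the libraries compared 60. For metformin, TMM within pools gave 47, TMM over libraries 6, only the libraries compared 149 and DESeq2 108. For trifluoperazine DESeq2 gave 5. Against the reference, a mean of at least 50 reads gave 97, 46, 22 and 62 calls without drug, in 5-FC, metformin and trifluoperazine. Median of ratios gave 98 without drug. Only the libraries compared gave 215 (5-FC), 6 (fluconazole), 98 (metformin) and 183 (trifluoperazine). In metformin, TMM within pools gave 113 and no filter 95. Left-out libraries gave 55 to 85, 30 to 69, 129 to 198, 13 to 27 and 29 to 49 in the order of media above. Between partners, TMM within pools gave 67 without drug, 99 in 5-FC and 36 in metformin. Only the libraries compared gave 66 without drug, 16 in fluconazole and 21 in metformin, where totals without strain 838, the most abundant, gave 2 and a mean of at least 50 reads and the replicate block 3 each. Left-out libraries gave 10 to 25, 17 to 28, 69 to 150, 0 to 0 and 7 to 17. The replicate block changed no other count by over 1.5 times. The cause of these shifts was not tested. Among single strains, 74 of 1960 results under other settings and 207 of 1084 with a library left out lost their call, and 0 turned sign.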
